A study of Mus musculus with 17 samples.

Results

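The microRNA sequencing covered 6 libraries of hepatocytes, 3 edited at the WRE, a site bound by β-catenin that lies upstream of DLK1/DIO3, and 3 edited at Rosa26, a locus widely used as a neutral control site. They are 6 of the 17 libraries of the series, and every one of the 476 microRNAs (miRNAs) listed for them was taken. All 6 libraries came from C57BL/6J mice of the ApcDHep genotype at 3 months of age. Hepatocytes of this genotype lose Apc, so control and WRE-edited cells alike carry the deletion of this brake on β-catenin. Each mouse had carried SaCas9 constructs in the AAV8 vector for 1 month and had been given tamoxifen (2 mg, 7 days), and hepatocytes were released with collagenase. The share of cells that was edited is not given in the labels, and cells of other liver types can remain in a perfusion preparation. Whether each library of a group is a mouse of its own is not said in the labels, and the tests therefore weigh differences against the spread among these libraries, which may be technical. In bulk RNA of this kind, fewer cells of a type and less RNA per cell cannot be told apart.

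MicroRNAs are short RNAs cut from hairpin precursors. Either arm of the hairpin, named 5p or 3p, can become the mature strand that guides the silencing complex to messenger RNAs, mainly through its seed, bases 2 to 8 from the 5′ end. The DLK1/DIO3 locus is an imprinted domain on mouse chromosome 12 whose maternal chromosome gives long non-coding RNAs (Meg3, Rian, Mirg) and one of the largest miRNA clusters of the genome. In hepatocytes the most abundant miRNA is miR-122, which is made almost only there and acts in lipid metabolism and in the maintenance of the hepatocyte state.

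The sequences below carry the results inside the locus. They were read from RefSeq (GRCm38.p6), in which 421 of the 476 listed miRNAs matched, and the seed is in capitals. The first set holds the 9 miRNAs with the smallest p-values between the groups and miR-299b-3p. The last is cut from the hairpin on the opposite strand, and its 18 bases are the first 18 of miR-299a-3p, so reads of the pair cannot be assigned with certainty.
miR-337-5p: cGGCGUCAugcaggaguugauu
miR-127-3p: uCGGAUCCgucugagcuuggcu
miR-134-5p: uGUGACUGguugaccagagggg
miR-154-5p: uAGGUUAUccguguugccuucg
miR-299a-3p: uAUGUGGGacgguaaaccgcuu
miR-299b-3p: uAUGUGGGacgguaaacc
miR-409-3p: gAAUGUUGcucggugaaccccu
miR-496a-3p: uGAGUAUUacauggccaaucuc
miR-434-3p: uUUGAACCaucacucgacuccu
miR-543-3p: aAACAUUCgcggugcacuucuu

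A second set shows members that share a seed or stand apart from the rest of the cluster. miR-379-3p and miR-411-3p share the seed AUGUAAC. The arms of miR-382 had fold changes of opposite sign, and miR-453 and miR-3071-5p had positive fold changes. miR-136-5p lies opposite the miR-3071 hairpin, in the same stretch of DNA on the other strand.
miR-379-3p: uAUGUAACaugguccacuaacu
miR-411-3p: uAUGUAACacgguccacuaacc
miR-382-5p: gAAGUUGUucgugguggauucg
miR-382-3p: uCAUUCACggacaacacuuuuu
miR-453: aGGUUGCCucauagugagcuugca
miR-3071-5p: aCUCAUUUgagacgaugaugga
miR-136-5p: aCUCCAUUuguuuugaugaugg

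The third set lies outside the locus. It holds 4 of the most abundant miRNAs, 2 of which share the let-7 seed GAGGUAG, and 5 with higher CPM in the WRE-edited libraries.
let-7f-5p: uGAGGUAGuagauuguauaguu
let-7a-5p: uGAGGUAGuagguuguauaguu
miR-16-5p: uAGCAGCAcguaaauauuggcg
miR-192-5p: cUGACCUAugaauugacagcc
miR-542-3p: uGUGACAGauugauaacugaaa
miR-3963: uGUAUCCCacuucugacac
miR-3535: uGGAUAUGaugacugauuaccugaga
miR-15b-3p: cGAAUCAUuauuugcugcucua
miR-126a-3p: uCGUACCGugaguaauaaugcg

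The libraries held 1393509 to 2011383 counts each, and 311 to 421 miRNAs reached 10 counts in a library. Replicates differed far beyond counting error, by 25.5 to 294 times the chi-square expected from counting alone. The control libraries were the more spread out group. Rosa26-edited 1 and 3 lay at opposite ends of the first principal component, which held 43.3% of the variance (scores of -9.54 and 8.11), and the second, with 24.4%, separated the groups. The log2 difference of Rosa26-edited 3 from Rosa26-edited 1 went with the GC content of the mature sequence, at a correlation of 0.386 across 318 miRNAs. Its median was -0.73 for miRNAs under 40% GC and 0.53 for those of 60% or more. The log2 fold change between the groups had a correlation of 0.099 with GC content over the same miRNAs and -0.0765 over 49 cluster miRNAs. miRNAs in 1 library are not independent, and these correlations share the 6 libraries.

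The miRNome was dominated by miR-122. It took 58.8%, 60.2% and 62.7% of the counts in WRE-edited 1, 2 and 3, and 58.2%, 62.8% and 71.6% in Rosa26-edited 1, 2 and 3. The groups overlapped, and the difference of -3.62 percentage points was smaller than the SD of the control group (6.79; exact two-sided permutation test, p = 0.6, where 0.1 is the smallest p that 3 against 3 allows). Exact 95% binomial intervals on these shares spanned under 1 percentage point, for example 71.5% to 71.6% in Rosa26-edited 3, and they cover counting error only.

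After miR-122 came miR-16-5p, a brake on the cell cycle, with a mean of 4.37% of the counts, and miR-192-5p, abundant in liver and gut, with 4.28%. let-7f-5p (2.31%), miR-26b-5p (1.96%), let-7a-5p (1.86%), miR-194-5p (1.66%), miR-21a-5p (1.47%), miR-126a-3p (1.41%) and let-7c-5p (1.29%) completed the 10 most abundant. These 10 took 80.9% to 86.9% of a library, and 15 to 20 miRNAs were enough for 90% of it. All the others shared the remaining counts. Except for miR-126a-3p, described further down, the CPM of these 10 overlapped between the groups, with log2 fold changes from -0.25 (miR-122-5p, SE 0.23) to 0.19 (miR-16-5p, SE 0.18). CPM here means counts scaled to a common library size with TMM factors.

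The miRNAs of the DLK1/DIO3 cluster made up a small share of all counts. Of the 476 miRNAs, 61 lie between the start of Dlk1 and the end of Dio3 (chr12:109452485-110281097). Together they took 0.574%, 0.568% and 0.449% of the counts in WRE-edited 1, 2 and 3. In Rosa26-edited 1, 2 and 3 they took 1.41%, 0.716% and 0.724%. Every control library was above every WRE-edited library, and Rosa26-edited 1 was well above the other controls. The means were 0.530% ± 0.0702 and 0.950% ± 0.399 (SD, n = 3 each; exact two-sided permutation test, p = 0.1, the smallest that the design allows). Without Rosa26-edited 1 the difference of -0.42 percentage points became -0.19. The summed CPM of the cluster was 5294, 4860 and 4875 in the WRE-edited libraries and 13022, 7368 and 8902 in the controls.

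Tested miRNA by miRNA, 355 of the 476 passed the filter on low counts, of which 51 lie in the cluster and 304 outside. The edgeR quasi-likelihood test called 0 of 355 after Benjamini-Hochberg adjustment (0% called, smallest adjusted p = 0.1675). DESeq2 on the same 355 called 4 lower (1.13%) and 0 higher. The 4 were miR-337-5p, miR-127-3p, miR-134-5p and miR-154-5p (DESeq2 adjusted p = 0.0191, 0.0191, 0.0254 and 0.0228), all in the cluster. At an unadjusted p under 0.05 in edgeR, 32 miRNAs were lower (9.01% of those tested) and 7 were higher (1.97%). All 32 of the lower ones lie in the cluster, which holds 51 of the 355. Their number was 17 without WRE-edited 3, 18 without Rosa26-edited 1 and 20 without WRE-edited 1. In CPM, the groups did not overlap for 38 miRNAs with lower values (10.7%) and 12 with higher values (3.38%) in the WRE-edited libraries. Among the 51 cluster miRNAs the 3 WRE-edited libraries were all below the controls for 27, a share of 52.9%, and all above for 0. Among the 304 others they were all below for 11 (3.62%) and all above for 12. miRNAs measured in the same 6 libraries are not independent, so these are not counts of separate observations. Overlap was counted in CPM only. As shares of all counts the groups of miR-379-5p, for example, did overlap.

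**Figure D1:**
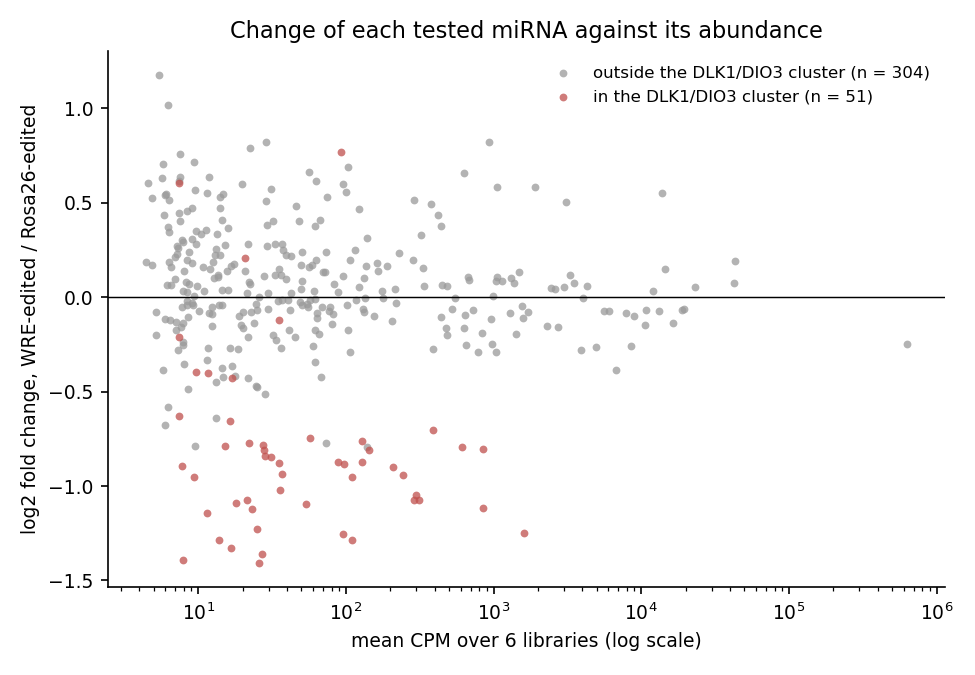
Log2 fold change of WRE-edited against Rosa26-edited libraries (vertical axis) for each of 355 tested miRNAs against the mean CPM over the 6 libraries (horizontal axis, log scale). Most of the 51 cluster miRNAs (red) lie between -0.5 and -1.4, while the 304 others (grey) centre near 0 with a median of 0.05.

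Fold changes in the cluster were of like sign and size along the domain. Of its 51 tested miRNAs, 48 had negative log2 fold changes, with a median of -0.88 (1.85-fold lower). The median of all 355 was -0.01 and that of the 304 outside the cluster was 0.05. A similar value was found at either end of the domain. The 16 tested miRNAs from miR-673 to miR-370, which include those opposite Rtl1, a gene derived from a retrotransposon, had a median of -0.88, with 9 lower at an unadjusted p under 0.05. The 35 from miR-379 to miR-369, some of them within Mirg, had a median of -0.89, with 23 lower. The medians were -0.87 for 21 tested 5p strands and -0.95 for 29 tested 3p strands. Of the 61 members, 10 did not pass the filter and were not tested: miR-1188-5p, miR-323-3p, miR-3544-5p, miR-376a-5p, miR-380-3p, miR-487b-3p, miR-667-3p, miR-667-5p, miR-668-5p and miR-679-5p.

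**Figure D2:**
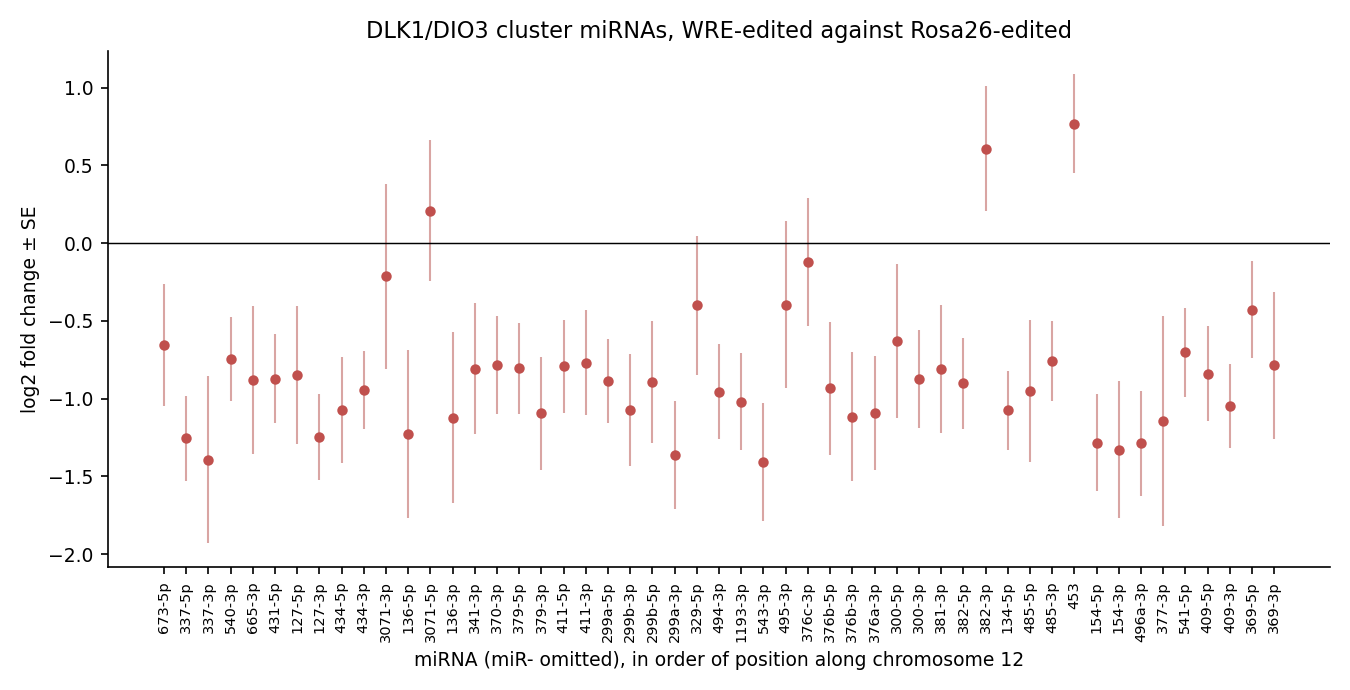
Log2 fold change with its standard error for the 51 tested cluster miRNAs, in order of position along chromosome 12 and not to distance. Of the 51 points, 48 lie below 0, and the 3 above it are miR-3071-5p, miR-382-3p and miR-453.

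miR-127-3p was the most abundant member and lies within Rtl1 (chr12:109592888-109592909), to which it is antisense and which it is known to silence. Its CPM was 922, 989 and 928 in WRE-edited 1, 2 and 3, and 2709.9, 1382 and 2654 in Rosa26-edited 1, 2 and 3. The WRE-edited values were tightly grouped and all below the controls, with Rosa26-edited 2 the nearest. The log2 fold change was -1.25 ± 0.28 (SE; edgeR adjusted p = 0.1675).

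miR-434-3p, another antisense partner of Rtl1, had CPM of 161, 180.03 and 161 against 394, 240.5 and 330.8, a log2 fold change of -0.94 ± 0.25. miR-337-5p, at the proximal end (chr12:109585818-109585839), had 53.3, 58.4 and 57.2 CPM against 145, 98.3 and 161. Its log2 fold change was -1.26 ± 0.27, with the smallest p of all 355 (unadjusted p = 0.000991 in edgeR, adjusted p = 0.1675). Neither miRNA had overlapping groups, and in both Rosa26-edited 2 was the lowest control.

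miR-134-5p, known from neurons as a regulator of dendritic spines, had 197, 199.7 and 159 CPM against 480.3, 302 and 389.5 (chr12:109734145-109734166; log2 fold change -1.08 ± 0.25). miR-154-5p, within Mirg (chr12:109738438-109738459), had 79.01, 54.7 and 58.2 CPM against 213, 109.6 and 145 (-1.29 ± 0.31). miR-409-3p, also within Mirg, had 199.9, 200.3 and 181 CPM against 386, 288 and 529 (-1.05 ± 0.27). In each of these 3 the lowest control, Rosa26-edited 2, was still above the highest WRE-edited library.

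Less abundant members had differences of like size and wider counting error. miR-299a-3p had 18.6, 12.9 and 13.5 CPM against 45.1, 24.3 and 47.1 (-1.36 ± 0.35), miR-543-3p had 13.8, 12.9 and 15.6 against 52.1, 20.1 and 40.2 (-1.41 ± 0.38), and miR-496a-3p had 8.57, 7.37 and 8.09 against 26.3, 15.99 and 16.2 (-1.29 ± 0.34). miR-543-3p had the most negative fold change of the cluster. The next 6 by p were miR-299a-5p, miR-1193-3p, miR-494-3p, miR-434-5p, miR-382-5p and miR-431-5p, with log2 fold changes from -0.87 to -1.07 and adjusted p of 0.2453 each in edgeR. In CPM none of these 6 had overlapping groups. As shares of all counts miR-434-5p did, with 0.0263% in WRE-edited 1 against 0.0208% in Rosa26-edited 3.

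Several of the best counted members were more uneven among the controls. miR-376b-3p had 664, 462 and 479 CPM against 1913, 1041 and 522, so that Rosa26-edited 3 lay below WRE-edited 1. Its log2 fold change of -1.12 had an SE of 0.41. miR-379-5p, the first miRNA of the distal part, had 685, 527 and 643 against 1565, 863 and 815 (-0.81 ± 0.29), and miR-411-5p had 510.2, 394 and 447 against 1146, 637 and 556 (-0.79 ± 0.30). In CPM their groups did not overlap, but Rosa26-edited 1 was far above the other controls. As shares of all counts both overlapped. WRE-edited 1 had 0.0743% and 0.0553%, against 0.0663% and 0.0453% in Rosa26-edited 3. In the cluster the median difference of Rosa26-edited 3 from Rosa26-edited 1 was -1.52 on the log2 scale for 12 members under 40% GC, -0.51 for 18 from 40% to under 50%, -0.36 for 15 from 50% to under 60% and -0.51 for 4 of 60% or more. The median log2 fold changes of the same members were -1.01, -0.86, -1.05 and -0.80, in that order. With GC offsets per library, a correction chosen after seeing the data, edgeR called 0 of 318 (smallest adjusted p = 0.129). It also called 0 of 355 without them (smallest adjusted p = 0.1675), so this count cannot show the part of the spread in the result. That part was not tested otherwise.

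**Figure D3:**
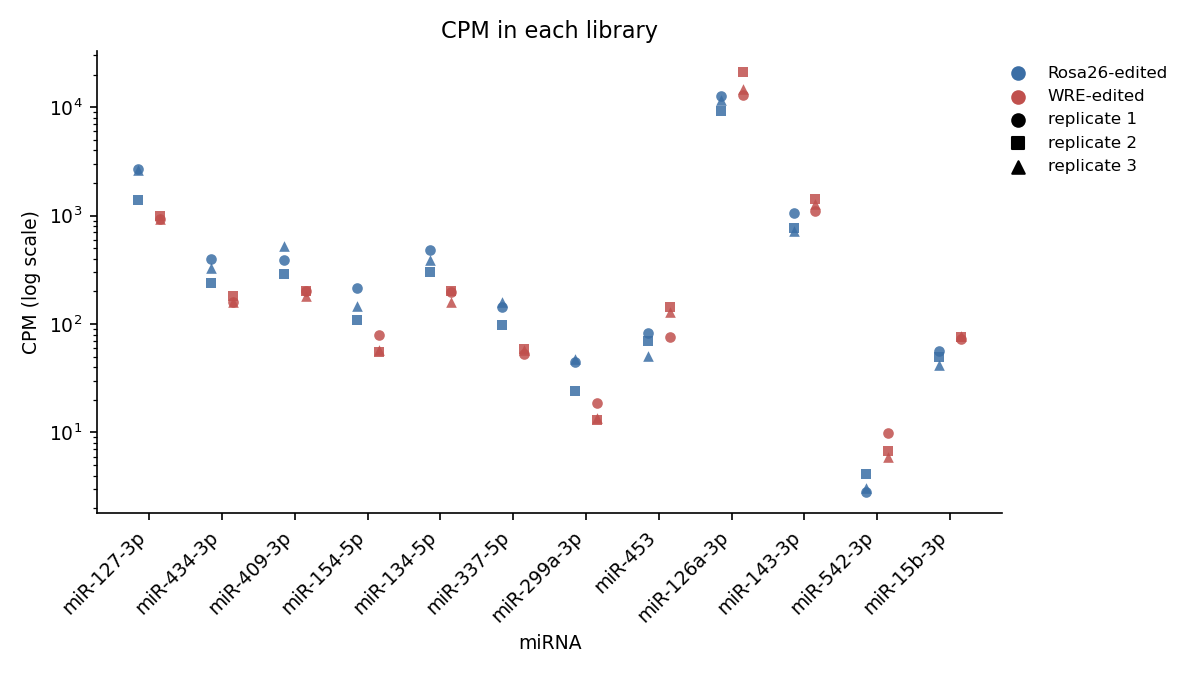
CPM of 12 miRNAs in each library (log scale), with Rosa26-edited libraries in blue to the left and WRE-edited libraries in red to the right, and a symbol for each replicate number. The first 7 are cluster miRNAs whose WRE-edited values all lie below the controls, miR-453 is a cluster miRNA with the opposite sign, and the last 4 lie outside the cluster and are higher in the WRE-edited libraries.

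Positive values were found for 3 cluster members. miR-453, within Mirg (chr12:109735669-109735692), had 76.6, 144 and 129.9 CPM in the WRE-edited libraries and 83.1, 70.5 and 51.01 in the controls. WRE-edited 1 lay below Rosa26-edited 1, so the groups overlapped, and the log2 fold change was 0.77 ± 0.32 (unadjusted p = 0.0375, adjusted p = 0.383 in edgeR). Its neighbours along the chromosome, miR-485-3p and miR-154-5p, had -0.76 and -1.29. miR-382-3p had 9.52, 5.53 and 11.3 CPM against 4.23, 5.92 and 7.73 (0.61 ± 0.40), on 9 to 21 counts a library. miR-3071-5p, from a hairpin on the strand opposite to miR-136, had 35.2, 12.9 and 17.8 CPM against 11.3, 19.5 and 27.8 (0.21 ± 0.45), and its group order was not resolved. miR-136-5p, on the other strand of that stretch, had 18.6, 8.60 and 17.8 CPM against 62.4, 29.6 and 12.4 (-1.23 ± 0.54). Of the 4 tested miRNAs on the minus strand of the domain, 3 were negative, with a median of -0.55.

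Outside the cluster, 6 of 304 tested miRNAs were higher at an unadjusted p under 0.05 and 0 were lower. Over all 355 tested, 7 were higher (1.97%). An unadjusted cutoff of 0.05 lets some miRNAs through where nothing differs, so the 6 are given as values. The number outside the cluster at this cutoff was 3 without WRE-edited 2 or 3, 17 without Rosa26-edited 1, 18 without Rosa26-edited 3 and 12 with library totals alone. The most abundant was miR-126a-3p, the leading miRNA of endothelial cells, which lies within the endothelial gene Egfl7 (chr2:26591402-26591423). It had 12999, 21219 and 14813 CPM in the WRE-edited libraries and 12616, 9137 and 11649 in the controls. WRE-edited 2 was the highest by far, while WRE-edited 1 was close to Rosa26-edited 1. As shares of all counts the groups were not separate, with WRE-edited 3 and Rosa26-edited 1 level at 1.366%. The log2 fold change was 0.55 ± 0.24 (unadjusted p = 0.0447, adjusted p = 0.428 in edgeR).

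miR-143-3p, which marks smooth muscle, stellate and other mesenchymal cells, had 1093, 1427 and 1274 CPM against 1048, 765 and 716, a log2 fold change of 0.58 ± 0.23. miR-15b-3p, the minor strand of a miR-16 neighbour, had 72.8, 75.6 and 78.2 CPM against 56.3, 49.2 and 41.7 (0.62 ± 0.26). miR-3963 had 1519, 851 and 1187 CPM against 579, 596 and 837 (0.82 ± 0.27), with WRE-edited 2 just above Rosa26-edited 3. All 3 had groups that did not overlap, and none passed the adjusted threshold (edgeR adjusted p = 0.358, 0.383 and 0.245).

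The remaining 2 were scarce. miR-542-3p on the X chromosome had 21, 11 and 11 counts against 6, 7 and 4, which gave a log2 fold change of 1.18 ± 0.39. miR-3535 had 13, 17 and 16 counts against 9, 8 and 4 (1.02 ± 0.38). Its position lies within Gm24148, a gene annotated as a miRNA inside Ncl, which encodes nucleolin. The 5 with negative values and the smallest p outside the cluster were miR-92a-1-5p (-0.79 ± 0.40), miR-149-5p (-0.77 ± 0.40), miR-210-3p (-0.51 ± 0.28), miR-29b-2-5p (-0.68 ± 0.37) and miR-34a-5p (-0.38 ± 0.21). None reached an unadjusted p of 0.05, and without Rosa26-edited 3 the value of miR-149-5p was -0.25. miR-34a-5p, a direct target of p53, was at 6175, 4877 and 6650 CPM against 8764, 7457 and 6867. Its groups did not overlap on this scale, but they did with the TMM factors of the seed family fit (7019 CPM in WRE-edited 3 against 6785 in Rosa26-edited 3).

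Other miRNAs encoded close together were compared with the DLK1/DIO3 cluster as values. The miR-322, miR-503, miR-351 and miR-542 cluster of the X chromosome had 6 tested members, all positive, with log2 fold changes from 0.18 to 1.18 and a median of 0.42. The miR-99b, let-7e and miR-125a cluster of chromosome 17 had 5, all positive, from 0.30 to 0.58 (median 0.52). There miR-125a-5p had 1703.5, 2818 and 2330.4 CPM against 1095, 1701 and 1782, so WRE-edited 1 was below Rosa26-edited 3. In the same cluster let-7e-5p is 1 mismatch from let-7a-5p, so reads may be split between them. The medians were 0.03 for the 6 tested members of miR-17-92, a cluster that drives proliferation, 0.05 for the 5 of miR-106b-25 on chromosome 5, and -0.18 for the 3 of miR-183, miR-96 and miR-182. The 4 tested of let-7a, let-7d and let-7f-1 on chromosome 13 had -0.19. The medians of the other groups of neighbours were thus at most 0.52 in size, against -0.94 and -0.89 for the 2 dense stretches of the DLK1/DIO3 domain.

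Lists of miRNAs by cell type or role gave 0 calls after adjustment in edgeR and in DESeq2. The liver list, with miR-122, miR-192 and others, had 39 tested members, 29 negative and 10 positive, with a median of -0.08, and 0 at an unadjusted p under 0.05. miR-802-5p, a regulator of glucose metabolism, had the largest difference (-0.79 ± 0.51). The summed CPM of this list was 634510 to 843660 in the WRE-edited libraries and 703880 to 994330 in the controls.

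Markers of other cell types had mostly positive values where blood vessels and mesenchyme were concerned. Of the 9 tested endothelial miRNAs 7 were positive, with a median of 0.47, and 1 (miR-126a-3p) was at an unadjusted p under 0.05. miR-126a-3p and miR-126a-5p are arms of the same hairpin, so the members of this list are not all independent. Of the 304 tested miRNAs outside the cluster 172 were positive (56.6%). miR-126a-5p had 0.50 ± 0.25, miR-10a-5p 0.65 ± 0.34 and miR-126b-3p 0.50 ± 0.27, while miR-221-3p had -0.29 ± 0.27, the lowest of the list. The summed CPM of the list was 18007 to 28037 in the WRE-edited libraries and 12750 to 17817 in the controls. On this scale the ranges did not overlap, but WRE-edited 1 (18007) was close to Rosa26-edited 1 (17817). The arms of miR-126a made up 85.8% to 91.1% of that sum, and without them it was 1747 to 2488 CPM against 1426 to 2291, where the ranges overlapped. Of 10 mesenchymal and stellate cell miRNAs 7 were positive, with a median of 0.29, and their sum was 2905 to 3339 CPM against 2398 to 2925, where the ranges overlapped. miR-199a-5p had 0.60 ± 0.32 and miR-145a-3p 0.72 ± 0.41, while 3 members were negative, the lowest at -0.14. miR-145a-3p is a minor arm with 6 to 24 counts a library. The major arm, miR-145a-5p, had 210, 245 and 232 counts in the WRE-edited libraries and 222, 154 and 156 in the controls. The part of these cells in the differences outside the cluster was not tested.

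Blood cell miRNAs, with miR-223 and miR-142a, had 8 tested members, 4 of each sign, and a median of -0.02. Muscle miRNAs had 1 tested member and a summed level of 10.8 to 18.3 CPM over all libraries, and neuronal miRNAs had 2 tested members and 171 to 225 CPM. miRNAs of imprinted loci elsewhere had 2 tested members, both strands of miR-335 (0.38 ± 0.29 and 0.47 ± 0.38). The miR-200 list, which marks cholangiocytes and other epithelia, had 6 members with a median of 0.31, at 115 to 248 CPM in sum against 84.1 to 209.9.

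The remaining lists centred near 0. The 15 tested let-7 members, which hold back oncofetal genes, had a median of -0.05. The let-7 seed as a whole took 7.94% ± 0.224 of the counts in the WRE-edited libraries and 7.32% ± 0.643 in the controls (SD, n = 3 each; exact permutation p = 0.3). The medians were 0.04 for 14 members of miR-17-92 and its paralogues, -0.003 for 9 p53 miRNAs, 0.02 for 16 linked to proliferation and oncofetal growth and -0.08 for 15 of the miR-15/16 and miR-29 families. In the last list the member at an unadjusted p under 0.05 was miR-15b-3p. The lipid and metabolism list had 21 tested members and a median of -0.09, and its 1 member at an unadjusted p under 0.05, miR-370-3p (-0.78 ± 0.31), is itself encoded in the DLK1/DIO3 cluster.

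Counts were then summed over miRNAs with the same seed, since these can act on the same targets. The miRNAs with a sequence had 360 seeds, of which 36 were shared by at least 2 listed miRNAs. Of these seeds 56 belonged to cluster members, and 0 were shared between a cluster miRNA and one outside it. Of 263 seed families tested, 0 passed in edgeR after adjustment (0% called) and 33 were at an unadjusted p under 0.05 (12.5%), while DESeq2 called 5. The 33 became 17 to 47 without each library (17 without WRE-edited 3 and 21 without WRE-edited 1 or 2). With bases 2 to 7 alone, 3 seeds joined both sides. miR-154-5p and miR-872-5p shared AGGUUA, and the cluster member gave 55.1% of their joint counts in the WRE-edited libraries and 76.7% in the controls. miR-495-3p and miR-7a-1-3p shared AACAAA (34.5% and 42.7%), and miR-673-5p took under 1% of the counts it shared with miR-27a-3p and miR-27b-3p (0.197% and 0.308%).

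The 5 families with the smallest p and lower values all belong to the cluster. Besides the single members miR-337-5p, miR-127-3p, miR-154-5p and miR-134-5p they include AUGUGGG, shared by miR-299a-3p and miR-299b-3p. Its summed CPM was 34.3, 23.4 and 31.3 against 81.3, 49.2 and 67.2, a log2 fold change of -1.15 ± 0.30 (edgeR adjusted p = 0.172). As the reads of this pair cannot be told apart with certainty, the sum is the firmer value. AUGUAAC, shared by miR-379-3p and miR-411-3p, had 55.7, 53.8 and 46.1 CPM against 132.9, 61.5 and 97.7 (-0.91 ± 0.32, adjusted p = 0.245). These were the 2 of the 35 tested families with several members that reached an unadjusted p under 0.05.

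The 5 families with higher values and the smallest p were all single miRNAs already named: miR-542-3p, miR-3963, miR-3535, miR-15b-3p and miR-453. The 33 tested families with several members and none in the cluster ranged from -0.19 to 0.74, with a median of 0.06. miR-10a-5p and miR-10b-5p, which are encoded in the Hox clusters, were at the top of this range (0.74 ± 0.35), and the 9 members of the let-7 seed had 0.03 ± 0.22. The 6 members of the miR-16 seed AGCAGCA had 0.26 ± 0.18 (edgeR unadjusted p = 0.176, adjusted p = 0.652). Their summed CPM was higher in every WRE-edited library than in any control (46984, 50873 and 50446 against 44951, 41985 and 36668). As shares of all counts the groups overlapped (5.09%, 5.76% and 4.41% against 5.18%, 4.13% and 3.02%).

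Arm usage was compared as the log2 ratio of 5p to 3p counts within a hairpin. Both arms were listed for 115 hairpins and 102 had enough counts to be tested, with 5p dominant in 62 and 3p in 40. One arm held over 90% of the counts in most of them, the 5p arm in 34 and the 3p arm in 25. The limma test called 0 of 102 after adjustment (0% called), and 6 were at an unadjusted p under 0.05 (5.88%). edgeR's diffSpliceDGE also called 0, with 1 at an unadjusted p under 0.05. Without Rosa26-edited 3 limma called 5 and 13 were at an unadjusted p under 0.05, so this count rests on 1 library. The median size of the difference was 0.21, below the median standard error of 0.41.

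The most abundant hairpins kept the same arm in all 6 libraries. The 5p arm held 99.8% to 99.9% of the counts of miR-122, 99.5% to 99.6% of miR-192, 99.9% of miR-26b and 99.6% to 99.8% of miR-21a in each library. miR-126a, by contrast, gave 15.5% to 20.9% of its counts from the 5p arm, and the 2 groups had mean log2 ratios of -2.16 ± 0.15 and -2.14 ± 0.27 (SD, n = 3). The log2 fold changes of its arms were 0.55 for 3p and 0.50 for 5p, and neither passed.

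**Figure D4:**
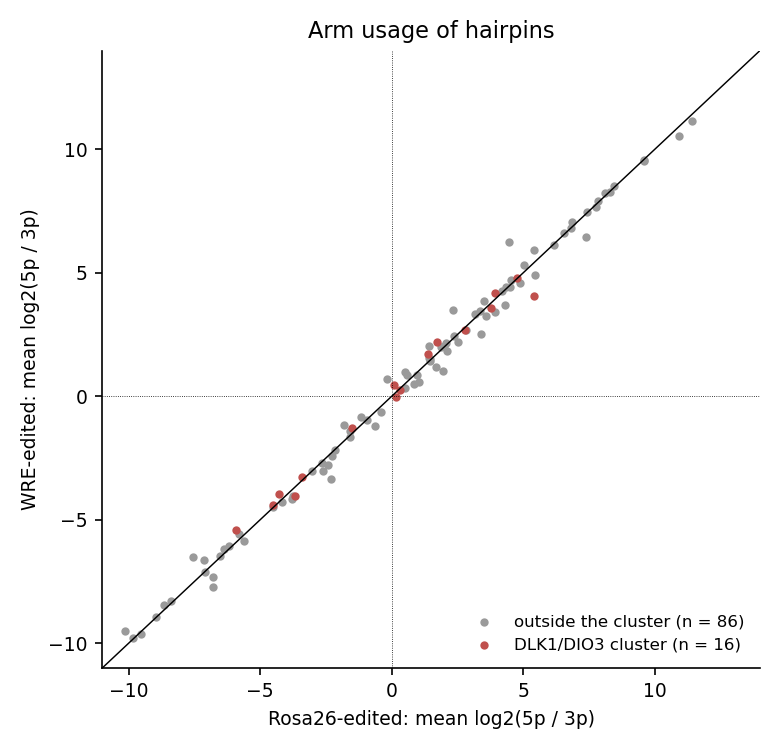
Mean log2 ratio of 5p to 3p counts of each of 102 hairpins in WRE-edited libraries (vertical axis) against Rosa26-edited libraries (horizontal axis), with the line of equal ratio. The 16 cluster hairpins (red) lie along the line like the 86 others (grey), and miR-382 is the red point farthest below it.

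Within the cluster the arms of a hairpin mostly had fold changes of the same sign. Of 16 cluster hairpins with both arms tested, 14 had negative fold changes for both, for example -1.26 and -1.39 for the 5p and 3p arms of miR-337, -1.29 and -1.33 for miR-154, -1.23 and -1.12 for miR-136 and -1.07 and -0.94 for miR-434. The median difference in arm ratio of these 16 hairpins was 0.13. miR-382 had the smallest p of all hairpins. Its 5p arm held 93.5%, 96.2% and 93.3% of the counts in the WRE-edited libraries and 98.4%, 96.8% and 98.0% in the controls, a difference in log2 ratio of -1.36 ± 0.40 (limma unadjusted p = 0.0042, adjusted p = 0.259). Its 3p arm rested on 9 to 21 counts a library, so this ratio depends on few reads.

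Outside the cluster, miR-152 and let-7e came next. The 5p arm of miR-152 held 1.24%, 1.00% and 0.848% of its counts in the WRE-edited libraries and 0.345%, 0.443% and 0.656% in the controls (1.03 ± 0.33), on 3 to 13 counts of that arm. The 5p arm of let-7e held 99.1%, 98.6% and 99% against 99.5%, 99.5% and 99.4% (-0.94 ± 0.31), on 3 to 11 counts of its 3p arm. Both had adjusted p of 0.259 in limma. let-7e-5p is 1 mismatch from the more abundant let-7a-5p, so reads may be split between them. The other 5 of the 8 smallest p were miR-342 (-0.94 ± 0.36), miR-1843b (1.16 ± 0.51), miR-200a (-1.02 ± 0.47), miR-15b (-0.62 ± 0.30) and miR-17 (-0.89 ± 0.43). The minor arms of miR-342 and miR-1843b had 4 to 10 and 3 to 15 counts a library. miR-1843b-5p also has 0 mismatches to miR-1843a-5p over their overlap, so its reads cannot be assigned with certainty. The dominant arm differed between group means in 2 hairpins, miR-505 and miR-136, whose arms were near balance. In miR-505 the 5p arm held 55.0%, 72.6% and 58.2% against 34.4%, 45.1% and 60.8%, so Rosa26-edited 3 went with the WRE-edited libraries.

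The mature sequences of the cluster did not stand apart in length or first base. A 5′ U, the base favoured by the silencing complex, opened 41.4% of 58 cluster sequences and 40.8% of 363 others. The median length was 22 in both, and the median GC content was 46.55% and 48%.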

How the data were processed

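Small RNA of 6 libraries was analysed, and the 11 RNA-seq libraries of the series were not used. The authors deposited whole-number counts per mature miRNA in 1 table, in which every row reaches at least 10 counts in some library. These counts come with an aligner and counter not given in the sources used here. Columns were assigned by the sample descriptions, per the labels. Identical mature sequences share a row (2 joined rows), and 36 rows have a partner within 1 mismatch over their overlap, between which reads may be split.

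Counts were tested in R 4.3.3 with edgeR 4.0.16, two-sided (filterByExpr by group with 10 counts at least, 15 in total; TMM factors, robust quasi-likelihood fit, Benjamini-Hochberg adjustment at 0.05). Families summed counts by bases 2 to 8. Arm ratios, log2((5p + 0.5)/(3p + 0.5)), needed a sum of 20 in every library and at least 5 counts of the minor arm in 3 libraries, and were tested with limma 3.58.1. Shares used exact permutation tests and 95% Clopper-Pearson intervals. DESeq2 1.42.0 was an alternative, as were other scalings, no filter, other arm thresholds, a replicate block and leaving out each library. On simulated counts of the 355 miRNAs, edgeR recovered 50% of 2-fold and 100% of 4-fold changes, with 3 false calls. The simulation gave every miRNA the same dispersion (0.07) and had no GC-linked shift of whole libraries. It also changed 20 miRNAs each by 2-fold, 4-fold and 8-fold at once. The larger changes ease the adjusted threshold for the 2-fold ones. Its rates may therefore not hold for these libraries.

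Names and positions came from RefSeq (GRCm38.p6). 55 miRNAs without a matching sequence were placed by their hairpin gene and have no sequence here. miRNAs named are the 10 most abundant, the 15 cluster members and, outside, the 5 in each direction with the smallest p, up to 4 members of each list, 5 families in each direction, 8 hairpins and the 5 most abundant hairpins. Others (miR-126a-3p among the higher ones outside, neighbours and the positive cluster members) were chosen after their values were seen. The lists and rules were chosen with earlier results of these data known.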

Additional observations from a re-analysis of the deposited data

How the results depend on the processing

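The 0 calls of edgeR for miRNAs and for seed families held under every scaling tried, without the filter and without each library in turn, and for miRNAs also with GC offsets. DESeq2 called 4 miRNAs and 5 seed families, and the cause was not tested. The median log2 fold change of the cluster was -0.98 to -0.59 without each library, the smallest without Rosa26-edited 1. Cluster miRNAs lower at an unadjusted p under 0.05 numbered 17 to 37 without each library (17 without WRE-edited 3, 18 without Rosa26-edited 1, 20 without WRE-edited 1) and 18 with library totals alone, which shift the median of all tested to 0.14. Outside the cluster the number was 3 to 18 without each library (3 without WRE-edited 2 or 3, 17 without Rosa26-edited 1, 18 without Rosa26-edited 3), 12 with library totals alone and 11 without the filter. Hairpins that differed in arm usage numbered 0 to 5 without each library, the 5 without Rosa26-edited 3. miR-342 and miR-152 were among them (limma adjusted p = 0.000173 and 0.000253). Their minor arms had only 4 to 10 and 3 to 13 counts a library. Rosa26-edited 3, the library left out, was the control whose miR-342 ratio lay among the WRE-edited values. The cluster share differed by -0.54 to -0.19 percentage points without each library and by -1.27 with miR-122 left out of the total, and the share of miR-122 by -6.62 to 0.07 and by -10.9 in TMM-scaled counts. Among 492 alternatives of named values, 0 had a change of sign in which the main or the alternative value lay over 1 SE from 0. Sign changes nearer to 0 were not counted. For example, without each library miR-3071-5p ran from -0.26 to 0.54 and miR-3071-3p from -0.61 to 0.54. Replicate numbers do not pair the libraries (correlations of deviations 0.2, -0.28 and 0.04), and the replicate block left 0 calls, with a cluster median of -0.86. With 3 libraries a group, edgeR recovered 50% of simulated 2-fold differences, under a simpler spread than that of these libraries and beside larger changes. Its 0 calls do not exclude differences of that size.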
